A study of Mus musculus with 24 samples.

Results

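The genes of the mouse replication-dependent histone clusters were followed through 4 stages of mammary tumor progression. They were taken as every gene of the count table whose GENCODE M1 symbol begins with Hist1h, Hist2h, Hist3h or Hist4h, which gave 70 of 37991 genes. By class they were 6 H1, 20 H2A, 19 H2B, 12 H3 and 13 H4 genes. On the mm9 genome 56 belong to the Hist1 group on chromosome 13, 55 of them between positions 21807632 and 24026720 and Hist1h2al apart at 51298057 to 51298434. Of the others, 10 are Hist2 genes on chromosome 3, 3 are Hist3 genes on chromosome 11 and 1 is the Hist4 gene on chromosome 6.

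Total RNA was sequenced from mammary tumors of PyMT mice and from normal mammary glands of FVB mice, all females of the FVB strain. The 24 samples formed 8 groups of 3 mice, PyMT or FVB, aged 6, 8, 10 or 12 weeks. PyMT mice were F1 females heterozygous for the polyoma middle T antigen under the MMTV promoter, which is active in mammary epithelium, and FVB controls of the same ages lacked the transgene. The stages assigned to PyMT tissue were hyperplasia (week 6), adenoma/MIN (week 8), early carcinoma (week 10) and late carcinoma (week 12). Each sample came from 1 mouse, and in such bulk tissue fewer cells of a type and less RNA per cell cannot be told apart.

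Core histones H2A, H2B, H3 and H4 wrap DNA into nucleosomes, and the linker histone H1 binds where DNA enters and leaves them. Cells make most of these proteins while DNA is copied, from many near-identical genes without introns whose mRNAs lack a poly(A) tail and end in a stem-loop instead. The stem-loop is bound by the protein Slbp, and the mRNAs are made in S phase and degraded when it ends, so their level in a tissue is widely read together with proliferation. The libraries were made from total RNA after removal of ribosomal RNA, with random hexamers as well as oligo-dT as primers, a preparation that also takes up RNA without a poly(A) tail.

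The shared end of these mRNAs can be seen in their sequence. A stem-loop was searched for as 16 bases made of a 6-base stem that begins with GG, a 4-base loop that begins with TT and the paired stem, within 100 bases after the annotated stop codon on mm9. It was present in 61 of the 67 histone cluster genes with such a window, against 70 of 21890 protein-coding genes in all (0.3198%). One form was shared by 39 genes and 5 other forms by the remaining 22. Examples of 5 of the 6 forms follow, read 5′ to 3′ on the gene's strand, with the stem-loop in capitals and 5 bases on each side. They lie, in order, at chr13:23713646-23713671 (minus strand), chr13:23839067-23839092 (plus), chr13:23673814-23673839 (plus), chr13:22132830-22132855 (minus) and chr13:23849230-23849255 (plus) of mm9.
Hist1h1e: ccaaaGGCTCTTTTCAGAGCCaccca
Hist1h2bb: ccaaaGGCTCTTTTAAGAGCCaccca
Hist1h4d: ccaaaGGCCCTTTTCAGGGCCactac
Hist1h4i: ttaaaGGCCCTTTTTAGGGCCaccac
Hist1h4b: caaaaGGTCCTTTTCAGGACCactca
The forms differ between classes. The 12 stem-loops of H4 genes had one of the last 3 forms shown, whose stem begins with GGCC or GGTC, and no other class had these forms. The window of Hist1h2al, Hist1h2an, Hist2h2bb, Hist2h2be, Hist1h3g and Hist1h4a held no match, which says only that these letters were not found there.

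Libraries held 6969375 to 13516601 counts, with a median of 8280269. To be tested, a gene had to reach a CPM (the count relative to the library's total) of 1 in 12 or more of the 24 samples, which left 14918 genes and 57 of the histone cluster genes. Of these 57, 53 reached the limit in all 12 PyMT samples and would have passed through PyMT alone, whereas they did so in 4 to 12 FVB samples. Counts over the tested members therefore describe those that passed and not all 70. The 13 members not tested were Hist1h1t, Hist1h2aa, Hist1h2aj, Hist1h2ao, Hist1h2ap, Hist2h2aa1, Hist1h2ba, Hist1h2bq, Hist1h2br, Hist3h2ba, Hist3h2bb-ps, Hist2h3c1 and Hist1h4m, and the tested ones held 99.85% of the members' counts. Many members are near copies, and Hist1h2ao, Hist1h2ap, Hist2h2aa1, Hist2h2aa2, Hist1h2bq and Hist1h2br have no 100-base stretch that is unique in the genome, so their counts are uncertain. A pair of FVB libraries stood apart, week 8 replicate 1 with 32 members at a count of 0 and week 10 replicate 3 with 33, against 5 to 16 in the others. In 13 of the 24 libraries, a tally of genes by count showed a local peak at 8 to 25 counts. This was taken as the size of a packet of reads. That FVB pair was among the 13, with packets of 18 and 19. The largest packets, 25 and 23, belonged to PyMT week 6 replicate 2 and PyMT week 8 replicate 2, with 10 and 9 members at 0.

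Summed over the 70 genes, histone RNA was higher in PyMT tissue than in FVB tissue at every week, with ranges that did not overlap within a week. At week 6 the sum of normalized counts (counts over DESeq2's size factors) was 30050, 28230 and 45050 in the 3 PyMT mice and 5922, 23380 and 17840 in the 3 FVB mice. PyMT mice of week 8 had 29480, 32210 and 42120 against 4712, 12720 and 18790 for FVB mice. Sums of 34160, 31470 and 24600 stood against 6126, 14590 and 4333 at week 10, and sums of 25770, 19630 and 34900 against 6101, 11110 and 6299 at week 12. Across weeks the ranges met, since the lowest PyMT sample of all, week 12 replicate 2, lay below the highest FVB sample, week 6 replicate 2. Over all weeks the mean was 31470 ± 7094 (SD, n = 12) in PyMT and 10990 ± 6440 (SD, n = 12) in FVB, a ratio of 2.86. PyMT samples spanned 2.295-fold and FVB samples 5.395-fold. As a share of the total count the members took 0.262% to 0.588% in PyMT and 0.034% to 0.266% in FVB.

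**Figure D1:**
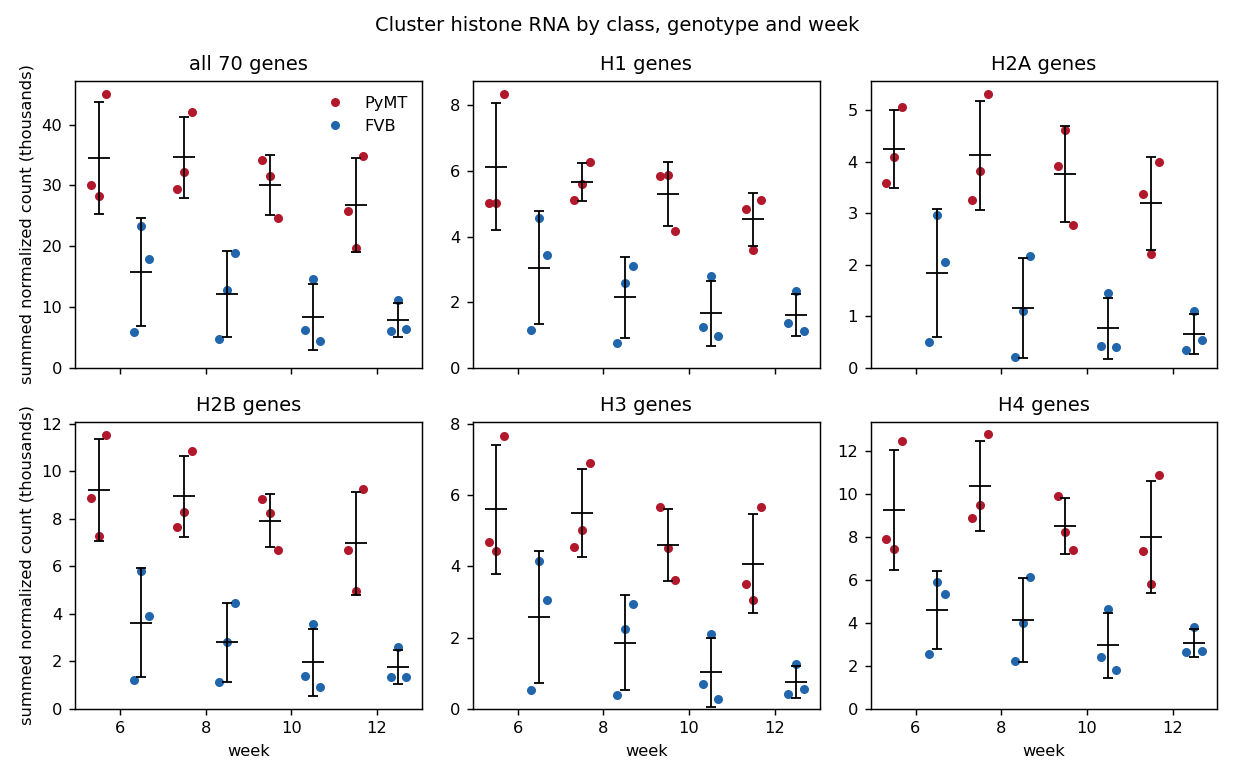
Summed normalized counts (vertical axes, scaled as marked) by week (horizontal axes) for all 70 histone cluster genes and for each class, with a point for each mouse and bars for the mean ± SD (n = 3) of PyMT (red) and FVB (blue). In every panel the PyMT points of a week lie above its FVB points, and for all 70 genes the FVB points run from 4333 to 23380.

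The sum of each class was likewise higher in every PyMT sample than in the FVB samples of its week. The ratio of the PyMT mean to the FVB mean was 2.55 for H1, 3.46 for H2A, 3.26 for H2B, 3.19 for H3 and 2.45 for H4. The mix of classes had different means in the 2 genotypes, a difference that was not tested. H4 genes made up 28.7% of the members' counts in PyMT (26.1% to 31.2% over samples) and 36.9% in FVB (25.4% to 47.1%), whereas H2A genes made up 12.2% in PyMT and 9.01% in FVB, and H3 genes 15.6% and 12.0%. Among FVB libraries the H4 share was 47.12% in week 8 replicate 1, with a member sum of 4712, and 25.36% in week 6 replicate 2, with a sum of 23380. Across FVB samples the sum of H4 counts spanned 3.42-fold, that of H3 counts 15.4-fold and that of H2A counts 13.8-fold.

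**Figure D2:**
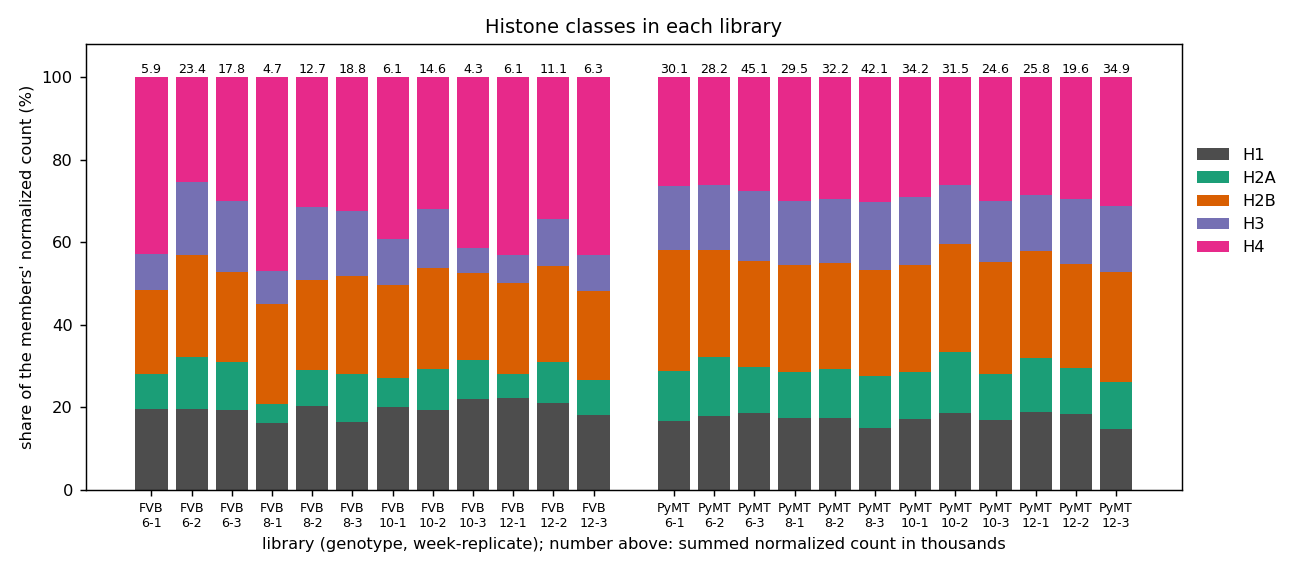
Share of the members' normalized counts in percent (vertical axis) held by each histone class, as a stacked bar for each of the 24 libraries (horizontal axis, genotype and week-replicate), with the library's member sum, scaled as marked, above it. H4 shares (top segment) run from 26.1% to 31.2% in PyMT and from 25.4% to 47.1% in FVB.

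Gene by gene, PyMT and FVB tissue of the same week were compared by the quasi-likelihood test of edgeR, adjusted by Benjamini-Hochberg over all 14918 genes, and a gene was called higher or lower where its adjusted p was under 0.05 and its log2 fold change beyond 1. At week 6, 2 of the 57 tested members were called higher and 0 lower, where 3.58% of all tested genes were called higher and 6.46% lower. At week 8, 7 were higher and 0 lower, against 3.57% and 6.37% of all genes. At week 10, 17 were higher and 0 lower, against 4.83% and 9.09%. At week 12, 44 were higher and 0 lower, against 7.75% and 13.0%. Over the mean of the 4 weekly differences, in a fit of all 24 samples, 49 were higher and 1 lower, against 8.70% and 17.5% of all genes. An unadjusted p under 0.05 was found for 19, 26, 37 and 49 members at weeks 6, 8, 10 and 12 (33.3%, 45.6%, 64.9% and 86.0% of the 57), against 26.7%, 27.9%, 30.5% and 40% of all tested genes, so the share at week 6 was near that of all genes.

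Most tested members lay above 0 at every week, called or not (54, 55, 55 and 54 of the 57 at weeks 6, 8, 10 and 12). Their median log2 fold change was 1.17, 1.72, 2.22 and 2.52, where the median over all tested genes was -0.078, -0.04, 0.007 and 0. All 3 PyMT values lay above all 3 FVB values for 29, 47, 50 and 51 of them (50.9%, 82.5%, 87.7% and 89.5%), against 16.2%, 18.4%, 18.9% and 21.5% of all tested genes. A CPM of at least 1 in all 24 samples, FVB samples included, was reached by 20 members. Of these, 1, 3, 11 and 16 were called higher, with medians of 0.98, 1.31, 1.66 and 1.67. Among all tested genes, a set not limited in this way, 3.58%, 3.57%, 4.83% and 7.75% were called higher. Counts of calls moved with single libraries. Without 1 library at a time they ran from 0 to 4 at week 6, 0 to 23 at week 8, 6 to 37 at week 10 and 21 to 47 at week 12. With the spread estimated from all 24 samples the week-12 count was 19 and the week-10 count 25.

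**Figure D3:**
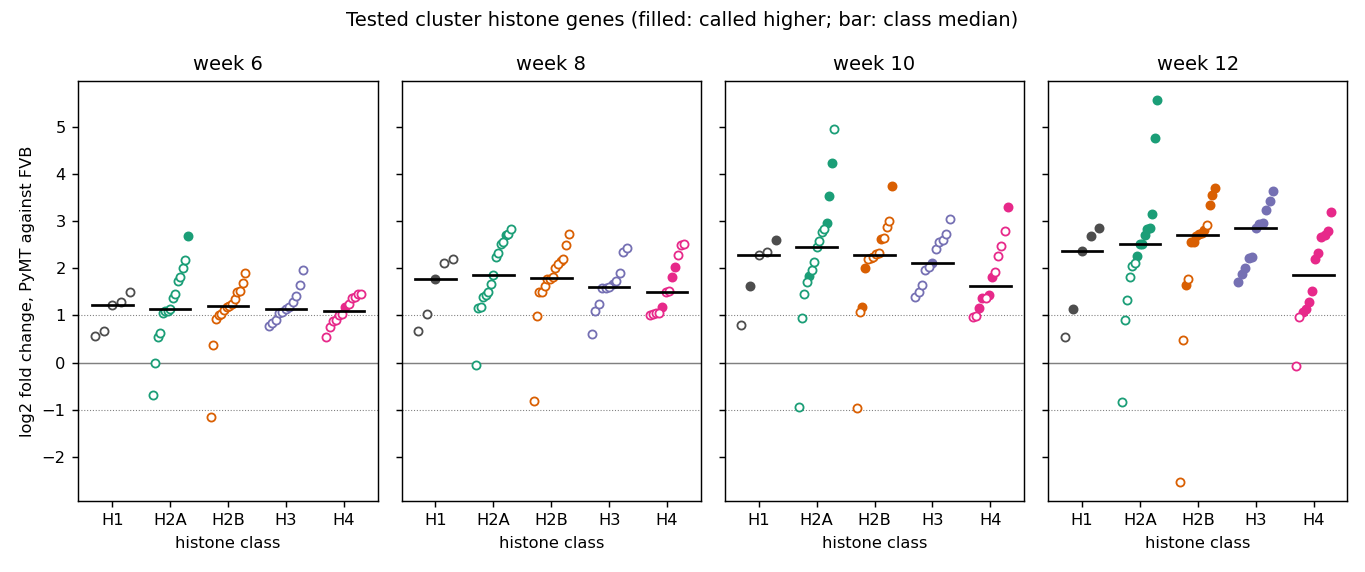
Log2 fold change of PyMT against FVB (vertical axis) for each of the 57 tested members by histone class (horizontal axis), with a panel for each week. Filled points are members called higher and bars lie at class medians. Hist1h2bp at week 10 stands at its value with FVB set to a floor of 3 counts per library. Class medians lie between 1.10 and 1.22 at week 6 and between 1.86 and 2.84 at week 12, and 2, 7, 17 and 44 points are filled.

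Of the 57 members, 9 were called at none of the weekly comparisons, 30 at 1, 15 at 2, 2 at 3 and 1 at 4. Hist1h4h, an H4 gene, was called at all 4 weeks. Its normalized counts at week 6 were 1087, 1379 and 1928 in PyMT against 466, 703 and 784 in FVB. At week 12 they were 867, 976 and 1682 against 386, 459 and 427. PyMT and FVB values did not overlap at either week. Its log2 fold changes were 1.17 ± 0.28 (SE), 1.18 ± 0.25, 1.81 ± 0.31 and 1.52 ± 0.27 at weeks 6, 8, 10 and 12 (edgeR, adjusted p = 0.0314, 0.0247, 0.00687 and 0.00448). Its week-6 call was lost without FVB replicate 1, without FVB replicate 2, without PyMT replicate 3 and without the muscle-rich FVB libraries. The other member called at week 6 was Hist1h2ac, an H2A gene, with 183, 345 and 232 in PyMT and 10.4, 26.2 and 81.1 in FVB. Its log2 fold change was 2.68 ± 0.69 (edgeR, adjusted p = 0.0421), and the call was lost in 8 of 17 alternative settings. Among these were the fit of all 24 samples (edgeR adjusted p = 0.0502) and the removal of any 1 week-6 library other than FVB replicate 3. Hist1h4i and Hist1h2ai, of H4 and H2A, were called at weeks 8, 10 and 12. These 4 genes were chosen for their calls, after their values were seen.

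H1 proteins bind linker DNA and help to compact chromatin. Of their 5 tested genes 4 passed as higher at week 12 (median log2 fold change 2.37), against 7.75% of all tested genes. Hist1h1e had the highest level of its class per kilobase of exon. Its normalized counts in PyMT were 1120, 628 and 1562 at week 6, 1052, 1134 and 1259 at week 8, 1254, 1063 and 942 at week 10, and 1024, 692 and 1150 at week 12. In FVB they were 322, 1057 and 860, then 250, 708 and 755, then 286, 630 and 180, and at week 12 they were 359, 672 and 308. The groups overlapped at week 6 and were apart at the 3 later weeks. The log2 fold change of 0.57 at week 6 did not pass (edgeR, adjusted p = 0.478), whereas week 10 (1.62 ± 0.43 SE, adjusted p = 0.0384) and week 12 (1.15 ± 0.32, adjusted p = 0.0307) were called. The week-10 call was lost in 6 of 17 alternative settings and the week-12 call in 7 of 16.

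Hist1h1b, the next H1 gene by level, had 751, 927 and 1543 in PyMT at week 6 and 775, 649 and 736 at week 12, with values of 692 to 1125 at the weeks between. In FVB it had 32.5, 747 and 547 at week 6, 0, 329 and 384 at week 8, 51.0, 459 and 3.13 at week 10 and 45.7, 261 and 39.4 at week 12. FVB replicate 1 was far below the highest FVB library of its week at all 4 weeks, as was replicate 3 at weeks 10 and 12, while every PyMT sample lay above the FVB samples of its week. It was called at week 12 alone, at 2.69 ± 0.66 (edgeR, adjusted p = 0.0182). Hist1h1d, an H1 gene among the hub genes of a co-expression module in the study, had 1454, 871 and 1220 in PyMT against 128, 463 and 119 in FVB at week 12. It was called at week 8 (1.77 ± 0.46, edgeR adjusted p = 0.0473) and week 12 (2.37 ± 0.51, adjusted p = 0.0112). Its week-8 call was lost in 5 of 16 alternative settings and its week-12 call in 1 of 16. The largest H1 difference at week 12 was that of Hist1h1a, at 2.86 ± 0.70 (edgeR, adjusted p = 0.0186), from 700, 481 and 793 in PyMT and 20.2, 211 and 50.3 in FVB.

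H2A protein pairs with H2B in the nucleosome. H2A genes were called higher at week 12 in 9 of 15 cases, against 7.75% of all tested genes. Their median was 2.504. Hist1h2ab, the highest per kilobase, had 678, 578 and 1023 in PyMT at week 6, 543, 594 and 1023 at week 8, 721, 974 and 570 at week 10 and 546, 383 and 885 at week 12. FVB counts were 59.1, 653 and 353, then 3.79, 226 and 459, then 23.0, 320 and 0, and 18.8, 239 and 31.7 at week 12. The groups overlapped at week 6 and were apart later, and at week 12 the difference was 2.70 ± 0.84 (edgeR, adjusted p = 0.0444). That call was lost in 7 of 16 alternative settings. Hist1h2al is the gene that lies away from the cluster, and its gene model holds only coding length. Its week-6 counts were 328, 445 and 595 in PyMT against 165, 422 and 295 in FVB, and 402, 350 and 581 against 55.5, 219 and 335 at week 8. Its values were 518, 581 and 255 in PyMT against 138, 146 and 105 in FVB at week 10, and 286, 224 and 421 against 136, 168 and 213 at week 12. The groups overlapped at week 6 alone, and it was called at week 10 alone, at 1.84 ± 0.36 (edgeR, adjusted p = 0.0121). The largest and the smallest H2A difference of week 12 were those of Hist1h2an and Hist2h2aa2. Hist1h2an had 176, 84.4 and 149 in PyMT against 0, 6.30 and 2.19 in FVB, at 5.56 ± 0.84 (edgeR, adjusted p = 0.00216). Its FVB mean was only 2.83 and 16.67% of its 100-base stretches are unique in the genome, so the size of this difference is uncertain. Hist2h2aa2, a copy of Hist2h2aa1, had 19.5, 4.27 and 21.3 in PyMT against 25.6, 13.9 and 43.7 in FVB, at -0.83 ± 0.89 (edgeR, adjusted p = 0.533).

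H2B genes were called higher at week 12 in 10 of 14 cases, against 7.75% of all tested genes. Their median was 2.70. Hist1h2bb, the highest per kilobase and another hub gene, had 1097, 1071 and 1409 in PyMT at week 6, 798, 1012 and 1270 at week 8, 1043, 1010 and 764 at week 10 and 818, 609 and 1197 at week 12. FVB counts were 71.9, 757 and 426, then 61.8, 378 and 570, then 169, 359 and 95.5, and 96.9, 219 and 96.2 at week 12. No FVB sample reached a PyMT sample of its week. It was called at week 10 (2.22 ± 0.45, edgeR adjusted p = 0.0139) and week 12 (2.72 ± 0.40, adjusted p = 0.00183). The hub gene Hist2h2bb had 1543, 1485 and 2098 in PyMT against 183, 425 and 217 in FVB at week 12, and was called at week 10 (2.62 ± 0.61, edgeR adjusted p = 0.0233) and week 12 (2.69 ± 0.34, adjusted p = 0.001). The largest H2B difference at week 12 was that of Hist1h2bf, at 3.70 ± 0.51 (edgeR, adjusted p = 0.00144), from 214, 154 and 324 in PyMT and 16.1, 28.99 and 9.84 in FVB. For Hist1h2bp at week 10 every FVB library was at 0 and PyMT had 31.1, 92.2 and 8.53. With FVB set to a floor of 3 counts per library, the PyMT mean was 13.4-fold higher. The packet sizes of these FVB libraries were 12, 13 and 19, above that floor, so 13.4 is not a lower bound.

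H3 genes were called higher at week 12 in 11 of 11 cases, with a median of 2.84. At week 6 it was 0 of 11, with a median of 1.14. Of all tested genes 7.75% were called higher at week 12 and 3.58% at week 6. Hist1h3c, a hub gene and the highest of its class per kilobase, had 851, 704 and 1312 in PyMT at week 6, 775, 692 and 1269 at week 8, 1044, 720 and 729 at week 10 and 625, 690 and 996 at week 12. In FVB it had 102, 748 and 519, then 34.1, 328 and 478, then 18.7, 385 and 37.6, and at week 12 it had 16.1, 124 and 52.5. The groups overlapped at week 6, and at week 12 the highest FVB value was under the lowest PyMT value. The difference at week 12 was the largest of its class, at 3.63 ± 0.59 (edgeR, adjusted p = 0.00319). Hist1h3a had 719, 521 and 1024 in PyMT at week 6, 549, 630 and 972 at week 8, 781, 658 and 469 at week 10 and 553, 385 and 789 at week 12. FVB counts were 45.2, 591 and 463, then 6.31, 309 and 409, then 128, 375 and 0, and 69.95, 232 and 78.7 at week 12. It was called at week 12 alone (2.23 ± 0.49, edgeR adjusted p = 0.012). The smallest H3 difference, that of Hist2h3b, was 1.71 ± 0.42 (edgeR, adjusted p = 0.0189).

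H4 genes were called higher at week 12 in 10 of 12 cases, against 7.75% of all tested genes. Their median was 1.86. Hist1h4d had the highest level per kilobase of all members. Its normalized counts were 1767, 1696 and 2490 in PyMT at week 6, 1772, 1699 and 3142 at week 8, 2057, 2041 and 1703 at week 10 and 1570, 1383 and 2510 at week 12. In FVB they were 650, 1600 and 1251, then 709, 1033 and 1587, then 760, 1379 and 540, and at week 12 they were 826, 1246 and 827. No FVB sample reached a PyMT sample of its week, with differences near 1. Hist1h4d was called at week 10 (1.16 ± 0.33, edgeR adjusted p = 0.0492), a call lost in 9 of 17 alternative settings. It was not called at week 12 (0.96, edgeR adjusted p = 0.0339), where the difference was under the fold limit. The largest and smallest H4 differences at week 12 were those of Hist1h4a, at 3.20 ± 0.56 (edgeR, adjusted p = 0.00436), and Hist2h4, at -0.07 ± 0.34 (adjusted p = 0.899). Hist2h4 had 134, 141 and 275 in PyMT and 179, 211 and 210 in FVB, so the groups overlapped, and its sign turned when counts were scaled by library size alone (0.23).

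**Figure D4:**
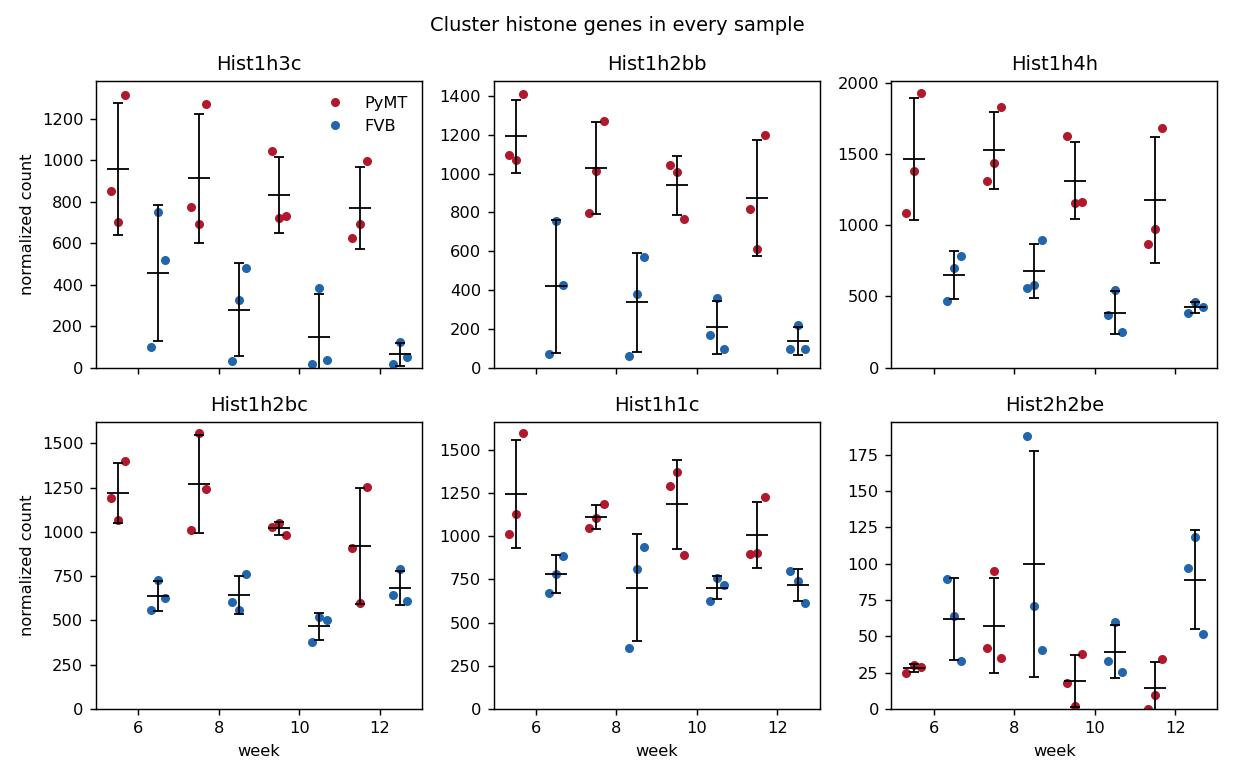
Normalized counts (vertical axes, linear) by week (horizontal axes) of Hist1h3c, Hist1h2bb, Hist1h4h, Hist1h2bc, Hist1h1c and Hist2h2be, a point for each PyMT (red) and FVB (blue) mouse and bars for the mean ± SD (n = 3). At week 12 Hist1h3c is at 124 or less in FVB and 625 or more in PyMT, Hist1h2bc overlaps between the groups, and Hist2h2be lies lower in PyMT.

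Some cluster genes are known to give polyadenylated mRNA as well, in cells that have left the cycle, and 6 of them were listed (Hist1h1c, Hist1h2bc, Hist2h2be, Hist3h2a, Hist3h2ba and Hist4h4). Of the 5 tested, 0, 0, 1 and 1 were called higher at weeks 6, 8, 10 and 12. The shares of all tested genes called higher were 3.58%, 3.57%, 4.83% and 7.75%. Medians of the 5 were 0.67, 0.99, 0.94 and 0.54 on the log2 scale. Hist2h2be, an H2B gene without the stem-loop in the window searched, was the 1 member called lower over the 4 weeks, at -1.38 ± 0.50 (edgeR, adjusted p = 0.0266). Its normalized counts were 24.9, 30.2 and 28.9 in PyMT against 89.2, 64.02 and 32.6 in FVB at week 6, and 42.0, 94.7 and 34.7 against 188, 70.9 and 40.7 at week 8. They were 17.8, 2.10 and 37.5 in PyMT against 33.1, 60.1 and 25.04 in FVB at week 10, and 0, 9.62 and 34.2 against 96.9, 119 and 51.4 at week 12. PyMT lay below FVB without overlap at weeks 6 and 12, and the groups overlapped at weeks 8 and 10. No weekly test called it by edgeR (week 12: -2.52 ± 1.10, adjusted p = 0.126), and its call over the 4 weeks was lost without FVB week 8 replicate 1, when counts were scaled by library size alone and without the 4 FVB libraries richest in muscle genes.

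Hist1h2bc, an H2B gene of this list and of high level per kilobase, had 1193, 1067 and 1400 in PyMT at week 6, 1012, 1561 and 1240 at week 8, 1029, 1049 and 981 at week 10 and 908, 599 and 1255 at week 12. In FVB it had 558, 730 and 625, then 603, 559 and 763, then 376, 521 and 499, and at week 12 it had 644, 789 and 609. The FVB libraries with 32 and 33 members at 0, week 8 replicate 1 and week 10 replicate 3, held 603 and 499 of it, within the range of the other FVB libraries of their week. It was called at week 10 (1.19 ± 0.19, edgeR adjusted p = 0.00491) and the groups overlapped at week 12 (0.49, adjusted p = 0.217). Hist1h1c, an H1 gene, had 898, 902 and 1229 in PyMT against 798, 739 and 615 in FVB at week 12, the smallest H1 difference of that week (0.54, edgeR adjusted p = 0.0697). Over the 4 weeks its difference was 0.66 ± 0.13 (edgeR, adjusted p = 0.000277), under the fold limit.

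Hist4h4, the single gene of its cluster, had 848, 704 and 1428 in PyMT at week 6, 1194, 1120 and 1680 at week 8, 1260, 795 and 937 at week 10 and 863, 699 and 1401 at week 12. FVB counts were 360, 850 and 850, then 266, 642 and 1036, then 387, 739 and 444, and 435, 500 and 519 at week 12. It was called at week 12 (1.08 ± 0.26, edgeR adjusted p = 0.018), a call lost in 5 of 16 alternative settings. Its gene model holds only coding length, and the effect of this on its level per kilobase was not measured. Hist3h2a had log2 fold changes of 2.18, 1.18, 0.94 and 1.82 at the 4 weeks and passed at none (week 12, edgeR adjusted p = 0.153), and 35.6% of its exon is shared with Trim17 on the same strand. Hist3h2ba, under the limit for testing, averaged 18.4 in PyMT (0 to 45.4) and 1.88 in FVB (0 to 12.4). Genes known from testis were near 0, with means of 0.614 in PyMT and 0 in FVB for Hist1h1t, 0.173 and 0 for Hist1h2aa, and 0.701 and 0.255 for Hist1h2ba.

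Changes between weeks were tested in the fit of all 24 samples. Asking whether PyMT minus FVB differed between week 12 and week 6, 0 members passed an adjusted p under 0.05, where 0% of all tested genes did, and 2 members (Hist1h2an and Hist2h2ac, of H2A) had an unadjusted p under 0.05 (3.51% of members against 4.63% of all genes). Between weeks 8 and 10, where the tumors turn malignant, 0 members passed, against 0.00670% of all genes, and 0 had an unadjusted p under 0.05 (3.57% of all genes did). DESeq2 and limma voom also gave 0 in both. From week 6 to 12 within PyMT no member was called higher or lower (0% of all genes in either direction), and 0 had an unadjusted p under 0.05 (6.73% of all genes did). Within FVB no member was called either (0% of all genes in either direction), and 15 had an unadjusted p under 0.05 (26.3% of members against 4.19% of all genes). DESeq2 and limma voom gave 0 calls within each genotype too. The median log2 change from week 6 to 12 was -0.34 in PyMT, negative for 50 of 57 members, and -1.52 in FVB, negative for 52. Over all 14918 tested genes the medians were -0.018 and -0.012, with 7707 and 7646 genes negative. PyMT minus FVB changed from week 6 to 12 by a median of 1.19, negative for 7 members, where the median over all genes was 0.028. The member sum averaged 15710 ± 8920 at week 6 and 7836 ± 2835 at week 12 in FVB (SD, n = 3 each), and 34440 ± 9231 and 26770 ± 7686 in PyMT.

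Promoter sequence was compared because members of a class share elements. RefSeq promoters on GRCm38.p6 (windows of equal length around each gene's start) were matched for 61 of the 70 genes, and both strands were searched. The letters CCAAT were found in 49 of 49 promoters of H1, H2A, H2B and H3 genes and in 3 of 12 of H4 genes. They were found in 41.06% of the 27025 genes searched for comparison, a set that did not cover every chromosome. TATAAA was found in 35 of the 61 (57.38%), against 15.67%. The octamer ATTTGCAT, which can be bound by the factor Oct1, was found in 7 of 16 H2B and 7 of 17 H2A promoters and in 0 of the other classes, against 1.97%. H2A and H2B genes often lie head to head and can share a promoter region. Octamers of the H2B genes Hist1h2bb, Hist1h2bg and Hist2h2bb are shown in capitals on the gene's strand, at chr13:23746633-23746662 (plus), chr13:23571330-23571359 (plus) and chr3:96269641-96269670 (plus) of GRCm38.p6.
Hist1h2bb: ttgagtctcttATTTGCATaaagcctttga
Hist1h2bg: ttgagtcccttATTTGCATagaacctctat
Hist2h2bb: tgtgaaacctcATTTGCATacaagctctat
At week 12 the median log2 fold change was 2.70 for the 6 tested H2B genes with the octamer and 3.14 for the 6 with a promoter lacking it. It was 2.51 for the 50 tested members with the stem-loop and 2.82 for the 6 without. By sequence copies, it was 2.83 for the 16 tested members with under 50% of their 100-base stretches unique in mm9, 12 of them called. For the 17 with at least 90% it was 1.82, 11 of them called. Of all tested genes 7.75% were called higher at week 12.

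Genes that act with the histone clusters were taken from fixed lists. Over all tested genes 3.58%, 3.57%, 4.83% and 7.75% were called higher at weeks 6, 8, 10 and 12. Of 11 histone variants, encoded outside the clusters, 0, 1, 2 and 4 were called higher at weeks 6, 8, 10 and 12, with medians of 0.50, 0.28, 0.51 and 0.77. At week 12 H2afx, a variant marked at DNA breaks whose gene also held the stem-loop, was higher by 2.19 ± 0.36 (edgeR, adjusted p = 0.00321). Cenpa was higher by 1.91 ± 0.505 (edgeR, adjusted p = 0.0246). H3f3b, one of the genes of H3.3, was higher by 1.57 ± 0.22 (edgeR, adjusted p = 0.00147) and H2afz, the gene of H2A.Z, by 1.16 ± 0.36 (adjusted p = 0.0434). The other H3.3 gene H3f3a (0.64, edgeR adjusted p = 0.0168) and the linker variant H1f0 (0.77, adjusted p = 0.0204) were under the fold limit. Over the 4 weeks 4 variants were higher and H2afy2, a macroH2A gene, was lower (-1.53, edgeR adjusted p = 0.044). In that comparison 8.70% of all tested genes were called higher and 17.5% lower.

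Of 11 tested factors that transcribe the clusters or process their mRNAs, 0, 0, 1 and 0 passed as higher at the 4 weeks. Their medians were 0.21, 0.30, 0.49 and 0.32. The shares of all tested genes called higher, for these and the lists below, were 3.58%, 3.57%, 4.83% and 7.75%. At week 12 Slbp, which binds the stem-loop, was at 0.14 (edgeR, adjusted p = 0.761) and Npat, the coactivator of the clusters, at 0.08 (adjusted p = 0.845). Hinfp, a factor of H4 gene promoters, was called at week 10 (1.70, edgeR adjusted p = 0.0131) and over the 4 weeks (1.04, adjusted p = 1.06e-05), as was Zfp473 over the 4 weeks. Of 14 histone chaperones, which carry new histones to DNA, 1, 1, 1 and 3 were called higher at the 4 weeks. At week 12 these were Asf1b at 2.82 ± 0.54 (edgeR, adjusted p = 0.00618), the CAF-1 subunit Chaf1a at 2.39 ± 0.33 (adjusted p = 0.00147) and Nasp at 1.51 ± 0.27 (adjusted p = 0.00506), and the other large CAF-1 subunit Chaf1b was at 1.31 (adjusted p = 0.146). Of 16 S-phase genes of DNA replication, 4, 5, 0 and 12 were called higher, with medians of 1.26, 1.71, 1.05 and 1.64. Among them at week 12 were Mcm2 and Mcm6 of the replicative helicase, at 2.59 ± 0.23 (edgeR, adjusted p = 0.000327) and 2.38 ± 0.42 (adjusted p = 0.00447), and Rrm1 of ribonucleotide reductase at 2.07 ± 0.20 (adjusted p = 0.000372).

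**Figure D5:**
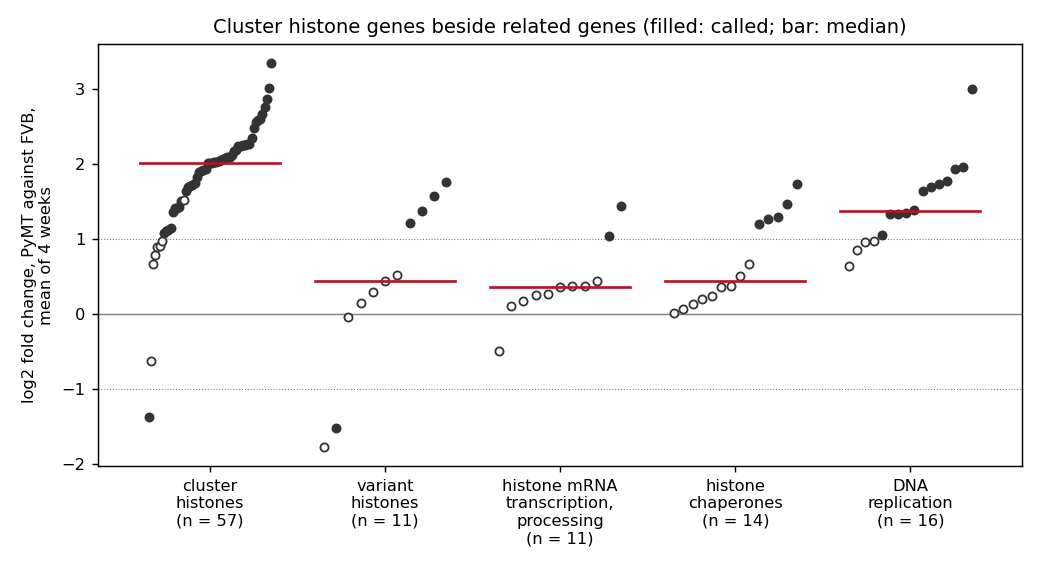
Log2 fold change of PyMT against FVB over the 4 weeks (vertical axis) for the tested histone cluster genes and the genes of 4 fixed lists (horizontal axis), with filled points for called genes and bars at medians. The medians are 2.01 for the 57 cluster genes, 0.44 for variants, 0.36 for transcription and processing factors, 0.44 for chaperones and 1.37 for the DNA replication genes.

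Summed levels of other gene lists were set beside the histone sum. The summed S-phase list was 6147 to 11925 in PyMT and 1762 to 6639 in FVB. The 7 luminal epithelial markers were Krt8, Krt18, Krt19, Epcam, Cdh1, Cldn3 and Cldn7. Their sum was 18349 to 36211 in PyMT against 3923 to 18039 in FVB, and no marker was at 0 in any library. Over the 4 weeks 6 of 7 were called higher, against 8.70% of all tested genes. Krt19 went the other way, at -0.59 ± 0.23 (edgeR, adjusted p = 0.0354), under the fold limit. Its mean was 1320 in PyMT and 2104 in FVB. Adipocyte markers summed to 1062 to 15554 in PyMT against 50791 to 135818 in FVB. Fibroblast markers summed to 21429 to 44769 against 48426 to 186401, and endothelial markers to 631 to 1776 against 3834 to 7045. Basal epithelial markers summed to 1040 to 5308 against 2394 to 9323, with Acta2 and Oxtr called lower over the 4 weeks (-2.60 and -3.13) and Krt5, Krt14 and Trp63 not called (0.0001, 0.21 and -0.10). Macrophage markers summed to 1861 to 5169 against 2059 to 6060, with 0 of 6 called over the 4 weeks. The lymphocyte list summed to 176 to 618 in PyMT and 200 to 818 in FVB. Nearly all of it was Ptprc, the 1 of its 8 genes that was tested, so the sum does not measure the others. The 10 muscle markers summed to 63.9 to 95818 in PyMT and 223.8 to 1541129 in FVB, with Ckm at 0 in at least 1 library of each genotype. Among FVB libraries, week 10 replicate 3 had the lowest histone sum (4333) with an S-phase sum of 1978 and a muscle sum of 1541129, and week 8 replicate 1 had the next (4712) with 2188 and 1754. Week 6 replicate 2 had the highest (23380) with an S-phase sum of 6639 and a muscle sum of 356241. The part of differences in cell makeup in the histone values was not tested. In runs chosen after the data were seen, 40 members were called higher at week 12 without the 4 FVB libraries richest in muscle genes. In 5 libraries over 1% of the genes with a median CPM of 10 to 30 were at 0. Without these 5 libraries the counts were 4, 32 and 15 at weeks 6, 8 and 10.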

How the data were processed

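Total RNA of mammary tumors (PyMT) and normal mammary glands (FVB) from 24 mice was sequenced by the authors after removal of ribosomal RNA, as directional libraries. Per the labels and the study's methods, GSNAP (alignment to mm9) and HTSeq (counting by Ensembl identifier) were used by the authors, and the deposited values are raw counts with no scaling. The read length and the strand setting of HTSeq are not given in the sources used here, so reads of overlapping or near-identical genes may be split. Groups came from genotype and week, and every count column belonged to a sample (0 did not). No replicates were copies of each other, with a chi-square per gene of 19.23 to 239.7.

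Fits were made with limma 3.58.1, DESeq2 1.42.0 and edgeR 4.0.16 under R 4.3.3, and tables and figures in Python 3.11.15 with pandas 2.3.3, NumPy 2.4.6, SciPy 1.17.1, numba 0.67.0 and matplotlib 3.10.9. The 14918 genes with a CPM of 1 or more in 12 samples or more were tested by edgeR's quasi-likelihood test after TMM scaling, with Benjamini-Hochberg adjustment, week by week (3 against 3), and in 1 fit of 8 groups for contrasts between weeks and over the 4 weeks. Calls needed an adjusted p under 0.05 and, between groups, a log2 fold change beyond 1. The SE was taken as the fold change over the square root of F. The fits were tested on simulated data. Total counts of 6969375 to 13516601 limit the precision of low members, and the floor of 3 counts covers counting error only. Coordinates, symbols and stop codons came from GENCODE M1 on mm9, and promoters from RefSeq on GRCm38.p6.

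The histone genes and the gene lists were chosen with earlier results of these data known. Values in every sample are given for the 2 genes of each class with the highest mean normalized count per kilobase. Also named are the largest and smallest change of each class at week 12, genes called lower, the study's hub genes among them, genes known for polyadenylated or testis forms, and from each related list fixed genes and up to 3 with the smallest adjusted p at week 12. The alternatives were DESeq2's Wald test, limma voom with sample weights, DESeq2 size factors or library size for scaling, other filters, a replicate block, division by the packet size, a shared fit and each sample left out, with the removal of 5 or 4 libraries added after the data were seen.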

Additional observations from a re-analysis of the deposited data

How the results depend on the processing

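The direction of the median difference was kept at every week under each alternative, whereas counts of calls at weeks 6, 8 and 10 moved with the test and with single libraries. Members called higher at weeks 6, 8 and 10 numbered 2, 7 and 17, and they became 10, 12 and 26 by DESeq2's Wald test, 8, 22 and 39 by limma voom with sample weights, and 4, 29 and 44 after division by the packet size. Without a filter on low counts 4 and 28 were called at weeks 6 and 8, and with library size only 4 at week 6. The fit shared by all 24 samples gave 1 at week 6 and 19 in place of 44 at week 12. The 5 libraries with over 1% of the genes of median CPM 10 to 30 at 0 were chosen after seeing the data. They were FVB week 8 replicate 1, FVB week 10 replicate 3, and replicate 2 of PyMT weeks 6, 8 and 10. Without them weeks 6 and 8 gave 4 and 32. DESeq2 called 1 member lower at week 12, Hist2h2be (-2.58, adjusted p = 0.0412). The 1 member lower over the 4 weeks became 0 with library size only and without the 4 muscle-rich libraries (chosen after seeing the data, with 1 FVB sample left at week 6, which is assumed to vary like the others). Calls of single named genes were lost in some settings too. The week-10 call of Hist1h4d was lost in 9 of 17, that of Hist2h2bb in 4 of 17 and that of Hist1h2bb in 3 of 17. At week 12 the call of Hist1h1a was lost in 3 of 16, whereas those of Hist1h3c, Hist1h2bb and Hist2h2bb were lost in 0 of 16. The cause of these shifts was not tested.

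Leaving out 1 library at a time gave 0 to 4 calls at week 6 (0 without PyMT replicate 3, 1 without PyMT replicate 1, and 4 without FVB replicate 1 or PyMT replicate 2), 0 to 23 at week 8 (0 or 1 without any PyMT replicate, 0 without FVB replicate 2, 23 without FVB replicate 1 and 12 without FVB replicate 3) and 6 to 37 at week 10 (6, 6 and 9 without PyMT replicates 1, 2 and 3, and 8, 37 and 24 without FVB replicates 1, 2 and 3). It gave 21 to 47 at week 12, with 21 without PyMT replicate 3, 48 to 51 higher over the 4 weeks and 0 to 1 lower, with 0 without FVB week 8 replicate 1. The week-12 difference of Hist2h4, not called, turned to 0.23 with library size only, to 0.0114 after packet division, and ran from -0.502 to 0.123 without single replicates. That of Hist2h2be at week 8 ran from -1.34 to 0.0595. Library size only moved the median of all genes by 0.192, 0.202, 0.301 and 0.316 at weeks 6, 8, 10 and 12.

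Replicate numbers were not used to pair the samples in the main fits. Same-numbered samples correlated at -0.0413 to 0.198 in their deviations from group means. Such correlations cannot show whether these samples shared a litter or batch, which was not tested. With the replicate block 2, 11, 23 and 41 members were called higher at weeks 6, 8, 10 and 12, and 49 over the 4 weeks. Depth limits members with few counts. Of the 13 members not tested, Hist2h2aa1 and Hist2h3c1 had a count of 0 in all 24 samples and share exon sequence with each other on the same strand.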
